A study of Mus musculus with 12 samples.

Results

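The nuclear receptor superfamily was measured in primary mouse hepatocytes through 47 member genes, found by symbol among the 46983 genes of the count tables. These members and the target gene lists used below were chosen with earlier results of these data known. The members comprise the lipid, sterol, bile acid and xenobiotic receptors, the thyroid, retinoid, vitamin D and steroid receptors, the estrogen-related and clock receptors, and the orphan receptors. Total RNA was made into libraries with a TruSeq kit and sequenced on an Illumina HiSeq instrument, so that each value stands for transcripts of all cells in a culture. The 12 libraries form 4 groups of 3: AEG-1-L24K/L25H knock-in cells with CP775146, the same knock-in cells untreated, AEG-1-WT cells with CP775146 and AEG-1-WT cells untreated. CP775146, an agonist of the receptor PPAR-alpha, was given at 2.5 µM for 24 h (the unit prefix stands in a symbol font in the labels and is read as micro), and no vehicle is named for the untreated cells. The knock-in replaces leucines 24 and 25 of AEG-1, the product of Mtdh, by lysine and histidine (L24K and L25H); it was made with CRISPR/Cas9 on C57BL/6/J. Knock-in and wild-type mice were littermates of heterozygous crosses, and their age and sex are not stated. Whether a group's 3 libraries stem from different mice or from dishes of 1 preparation is not in the labels. The p-values therefore measure the spread between these libraries, which may be technical, and genotype cannot be told apart from a difference between mice or preparations.

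Nuclear receptors are transcription factors with a zinc-finger DNA-binding domain and a ligand-binding domain that, on binding a lipid, hormone or drug, exchanges corepressors for coactivators. Coactivators dock on it through short leucine-rich LXXLL motifs. Many members that sense fatty acids, oxysterols, bile acids, xenobiotics, thyroid hormone or retinoic acid bind DNA as a dimer with a retinoid X receptor (RXR), while HNF4-alpha, the estrogen-related receptors, REV-ERB and LRH-1 work as homodimers or monomers. In hepatocytes this family controls fatty acid oxidation, bile acid and cholesterol metabolism, drug clearance and glucose output. AEG-1 is known to bind RXR through an LXXLL motif near its amino terminus, where the replaced leucines lie.

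Total counts were 26956032 to 34885451 per library, and 15664 genes passed a filter on low counts and were tested. Levels are in CPM (counts scaled to a common library size, adjusted by TMM factors) or, where 1 gene is set against another, in TPM. TPM are counts divided by exonic length and scaled to a common total, without TMM factors. TPM and CPM can therefore differ in direction between groups. Untreated Hnf4a averaged 384 TPM in knock-in and 355 TPM in wild type, against 625 and 631 CPM. Changes are log2 differences ± SE from edgeR's quasi-likelihood fit over all 12 libraries, and a call needed an adjusted p (Benjamini-Hochberg, over all tested genes) under 0.05. Mtdh itself averaged 192.5 ± 3.72 CPM in treated and 173 ± 1.98 CPM in untreated knock-in cells, against 181 ± 4.32 CPM in treated and 166 ± 8.47 CPM in untreated wild-type cells (SD, n = 3 each here and below). It was not called by genotype untreated (0.06 ± 0.04 log2, adjusted p = 0.262) or with CP775146 (0.09 ± 0.04 log2, adjusted p = 0.0718). Gene counts do not show the 2 replaced residues. All 8 hepatocyte markers passed the filter; their summed level was 74950 to 77960 CPM in treated and 82330 to 86900 CPM in untreated knock-in libraries, against 121400 to 128300 CPM in treated and 119900 to 123000 CPM in untreated wild-type libraries. Called lower in knock-in were 6 of the 8 hepatocyte markers untreated and all 8 with CP775146, and none was called higher. Their median changes were -0.345 log2 untreated and -0.574 log2 with CP775146. Of all tested genes, 18.6% were called lower untreated and 22.0% with CP775146. Markers of other liver cells were present at low levels. Macrophage markers (7 of 7 passed) summed to 107 to 120.6 and 152 to 161 CPM in treated and untreated knock-in libraries, against 185 to 189 and 212 to 253 CPM in treated and untreated wild-type libraries. Cd68 made up most of that sum and was the 1 macrophage marker called lower in knock-in, in both conditions. Marco was called higher untreated, and Clec4f, Vsig4 and Cd5l with CP775146, and the 7 markers had medians of 0.21 log2 untreated and 0.38 log2 with CP775146, knock-in against wild type. Endothelial markers (6 of 7 passed) summed to 34.7 to 40.02 and 46.3 to 51.9 CPM in the same order in knock-in, against 65.9 to 68.5 and 76.1 to 87.5 CPM in wild type. Stellate and fibroblast markers (7 of 8 passed) summed to 69.1 to 79.2 and 109 to 124 CPM in knock-in, against 162 to 200 and 191 to 223 CPM in wild type. Cholangiocyte markers (5 of 5 passed) ran the other way, at 48.3 to 52.5 and 40.8 to 43.4 CPM in knock-in, against 32.8 to 33.7 and 15.1 to 17.99 CPM in wild type. Leukocyte markers (0 of 5 passed) stayed at or below 0.443 CPM in sum in every library, with Cd3e at 0 in all but the treated wild-type group. What part these mixtures had in the receptor differences below was not tested. In bulk RNA, fewer cells of a type and less RNA per cell cannot be told apart.

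Of the 47 receptors, 33 were expressed, set as at least 1 TPM in all 3 libraries of at least 1 group, and the same 33 passed the filter. Hnf4a, the receptor that maintains hepatocyte identity, led at 347 TPM over all libraries and made up 24.4% to 28.0% of the summed TPM of the family in each library. Rxra, the common dimer partner, followed at 116 TPM, then the bile acid receptor Nr1h4 (FXR) at 104 TPM, the xenobiotic receptor Nr1i2 (PXR) at 98.1 TPM and Ppara at 67.5 TPM. The next 5 were Nr2f6, Nr1h3, Esrra, Nr1h2 and Nr3c1, between 50.0 and 63.7 TPM. The ranges of neighbouring genes overlapped in most of this order, Hnf4a excepted, whose lowest library (294 TPM) stood above the highest library of Rxra (128 TPM). Exons of Ocel1 on the other strand cover 54.4% of the exonic length of Nr2f6, and reads there were assigned to neither gene. Per unshared base, Nr2f6 had 151 TPM in treated and 157 TPM in untreated knock-in cells. In wild type it had 116 TPM treated and 134 TPM untreated (a setting added after the data were seen). These means stood above those of Rxra (124, 126, 95.3 and 118 TPM in the same order), so the rank of Nr2f6 depends on the length used. Between groups, these TPM lack the TMM adjustment of the fitted changes. The fitted untreated genotype change of Nr2f6 was not called (0.10 ± 0.07 log2, edgeR adjusted p = 0.332). At the lower end, Nr4a2 averaged 0.821 TPM and Esrrg 0.711 TPM, and both reached 1 TPM in all libraries of the treated knock-in group alone. Just outside stood Nr0b2 at 0.536 TPM.

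**Figure D1:**
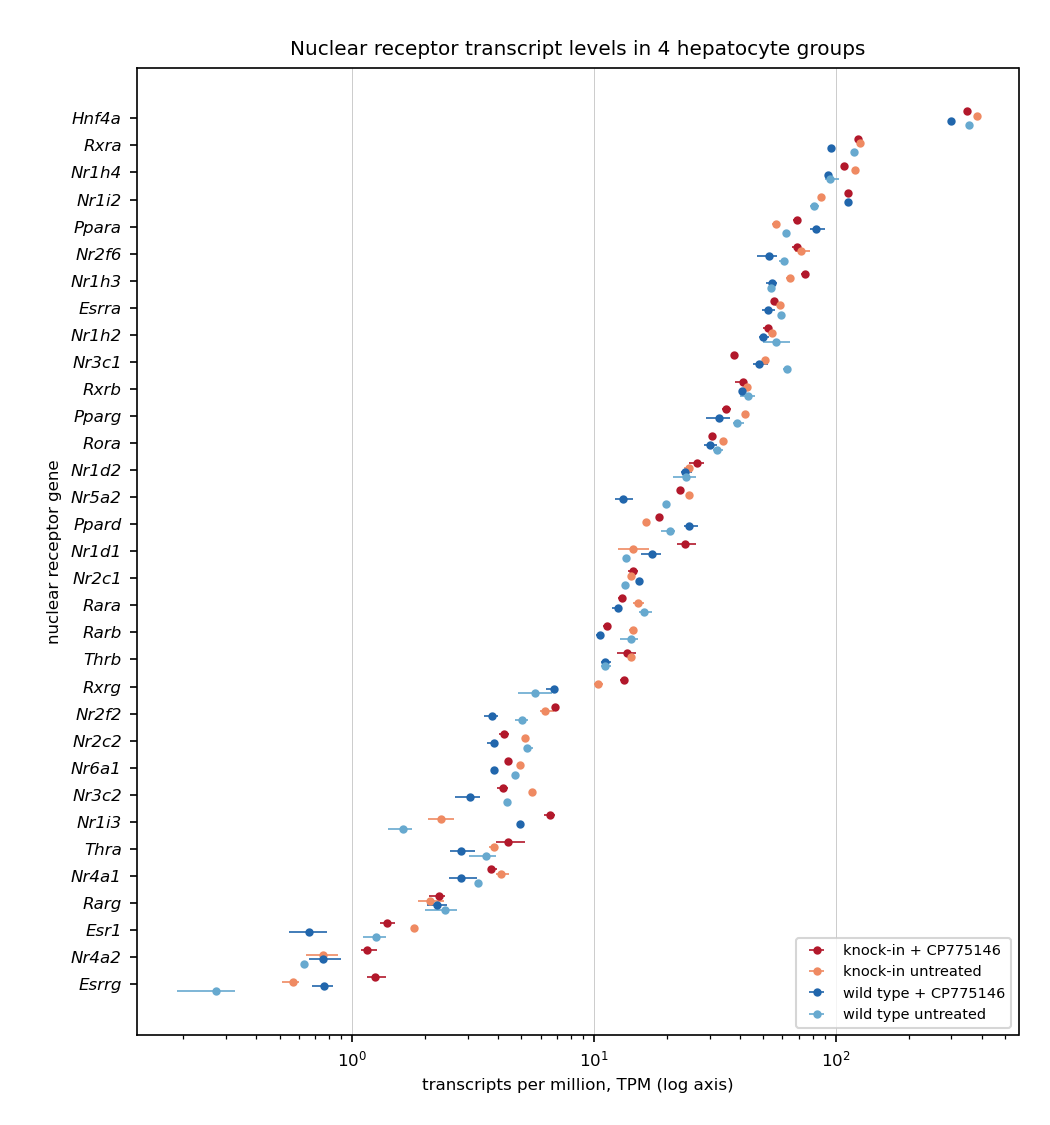
TPM (log axis) of the 33 expressed nuclear receptor genes, ordered by mean level, in the 4 groups; points are means of 3 libraries and bars run from the lowest to the highest library. Hnf4a stands alone at the top, 294 to 388 TPM, and Esrrg, Nr1i3 and Esr1 show the widest gaps between groups. TPM carry no TMM factors, so gaps between groups can differ from the fitted changes.

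The other 14 members did not pass the filter, and no fold change is given for them. Nr0b2 (SHP), the small receptor without a DNA-binding domain that FXR induces to repress bile acid synthesis, had 7 to 11 counts in each treated and 5 to 10 counts in each untreated knock-in library, against 2 to 7 counts in each treated and 4 to 7 counts in each untreated wild-type library. On the CPM scale these were 0.254, 0.337 and 0.197 in treated knock-in, 0.284, 0.153 and 0.284 in untreated knock-in, 0.0657, 0.238 and 0.186 in treated wild type and 0.256, 0.225 and 0.143 in untreated wild type. The 4 groups overlapped, at a level close to that of 3 counts (0.086 to 0.111 CPM per library). Over all 12 libraries, Esrrb held 58 counts, Hnf4g 33, the adrenal and gonadal receptor Nr5a1 (SF-1) 30, Nr4a3 25, Nr2f1 14, the vitamin D receptor Vdr 11, the FXR relative Nr1h5 6, the progesterone receptor Pgr 3 and the second estrogen receptor Esr2 2. Nr0b1, Nr2e1, Nr2e3 and Rorb, which are known from endocrine organs, brain or retina, had 0 counts in all libraries, which allows up to 3 counts in each.

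Receptors of nearly every role were called in at least 1 comparison, and most changes were under 2-fold. Untreated, 16 of the 33 differed between knock-in and wild type, 9 higher and 7 lower in knock-in, where 37.0% of all tested genes were called (18.4% higher and 18.6% lower). With CP775146, 19 differed between the genotypes, 12 higher and 7 lower in knock-in, against 42.5% of all tested genes (20.5% higher and 22.0% lower). In knock-in cells CP775146 changed 17 receptors, 11 up and 6 down, where 37.2% of tested genes were called (18.1% up and 19.1% down). In wild type it changed 20, 9 up and 11 down, where 45.0% were called (22.7% up and 22.3% down). Those 4 counts are 48.5%, 57.6%, 51.5% and 60.6% of the 33. The CP775146 effect differed between genotypes for 4 receptors, each with a higher value in knock-in, where 7.11% of tested genes were called (2.78% higher and 4.33% lower). Median changes of the 33 were -0.03, 0.04, 0.02 and -0.04 log2 in these first 4 comparisons, beside 0.00, -0.01, -0.01 and -0.01 for all tested genes. Without untreated knock-in replicate 2, 3 receptors were lower in untreated knock-in cells. In that fit 2370 of 15924 tested genes were called lower, against 2918 of 15664 with all libraries. Scaling by total counts moved the median genotype change of all genes by 0.10 log2 untreated and 0.14 log2 with CP775146. Under it, 12 receptors were higher and 3 lower in untreated knock-in, where 32.1% of all tested genes were called higher and 11% lower. With CP775146, 18 were higher and 3 lower in knock-in under it, where 38.0% of all were higher and 11.9% lower. It also gave 9 receptors that rose and 11 that fell with CP775146 in knock-in, where 13.2% of all rose and 27.8% fell.

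**Figure D2:**
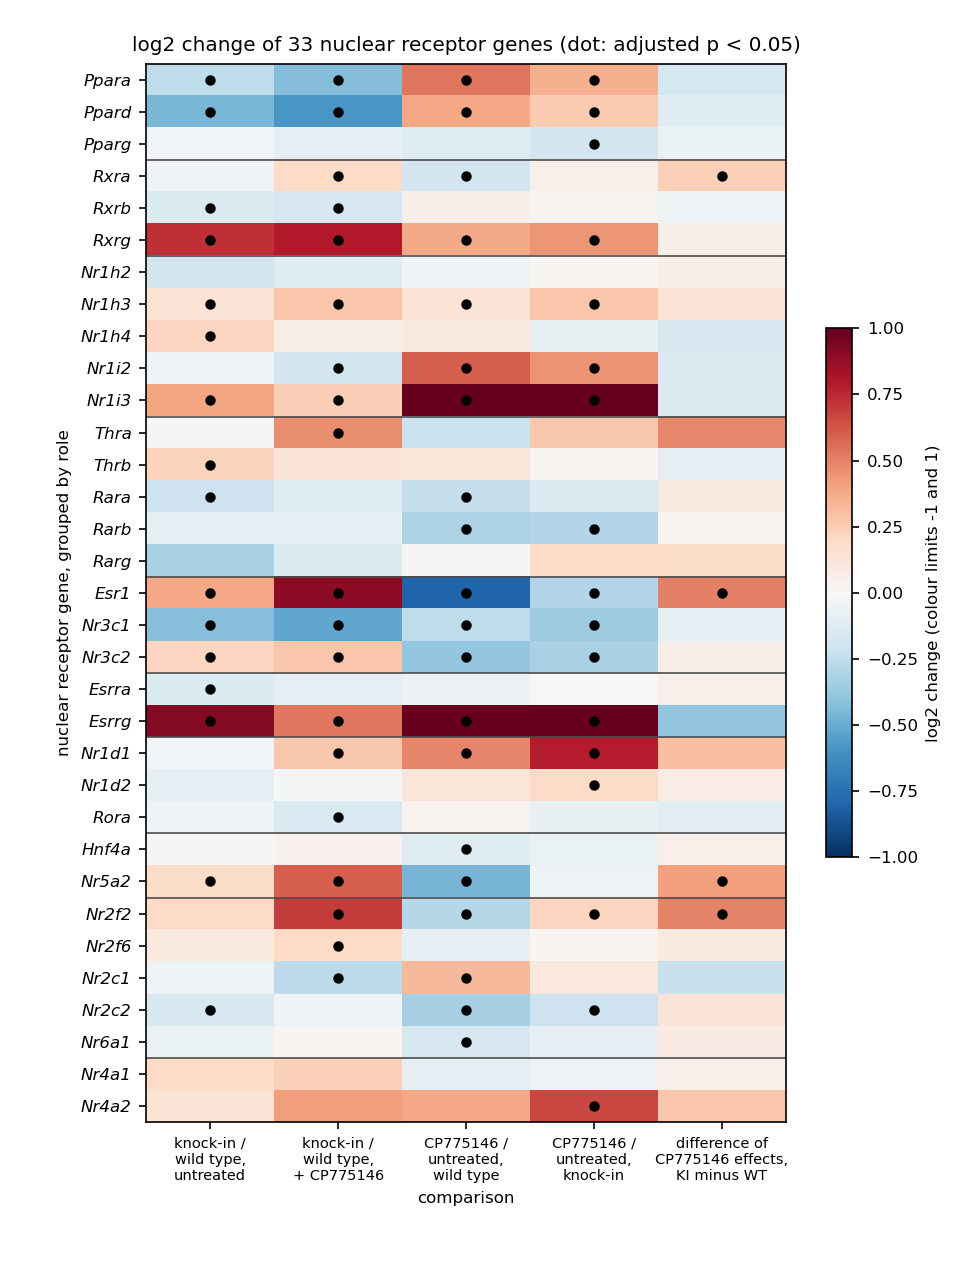
log2 change of the 33 tested nuclear receptor genes (rows, by role) in the 4 comparisons and in the difference of the CP775146 effects, knock-in minus wild type (columns); dots mark calls and colours are cut at 1 log2 either way. Nr1i3 and Esrrg pass 1 log2 with CP775146 in both genotypes, and dots in the last column stand at Rxra, Esr1, Nr5a2 and Nr2f2.

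Among the fatty acid receptors, Ppara (ENSMUSG00000022383, mm10 chromosome 15, 85734983 to 85802819, + strand) is the receptor CP775146 activates and drives fatty acid oxidation genes. Ppara had 89.7, 96.2 and 95.6 CPM in the treated knock-in libraries and 75.4, 70.8 and 73.7 CPM in the untreated knock-in libraries. Wild-type levels of Ppara were 121, 137 and 124 CPM with CP775146 and 86.5, 88.8 and 87.4 CPM untreated. All treated libraries stood above all untreated ones in each genotype, and the knock-in libraries stood below the wild-type libraries in each condition. Ppara rose with CP775146 by 0.36 ± 0.05 log2 (edgeR adjusted p = 1.7e-07) in knock-in and by 0.54 ± 0.04 log2 (adjusted p = 3.24e-11) in wild type. It was lower in knock-in, at -0.26 ± 0.05 log2 (adjusted p = 3.84e-05) untreated and -0.44 ± 0.04 log2 (adjusted p = 2.11e-09) with CP775146. The difference between the CP775146 effects, -0.18 ± 0.06 log2 knock-in minus wild type, was not called (adjusted p = 0.09) except with no filter on low counts (-0.19 log2, adjusted p 0.0497).

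Ppard (ENSMUSG00000002250, mm10 chromosome 17, 28232754 to 28301469, + strand) encodes PPAR-delta, a widely expressed fatty acid receptor. Ppard had 31.6, 30.2 and 30.0 CPM in the treated knock-in libraries and 26.4, 24.8 and 25.2 CPM in the untreated knock-in libraries. Wild-type levels of Ppard were 43.3, 49.3 and 44.8 CPM with CP775146 and 35.6, 36.9 and 32.4 CPM untreated. It showed the pattern of Ppara, with no overlap between the groups of any of the 4 comparisons. Knock-in minus wild type was -0.46 ± 0.06 log2 (edgeR adjusted p = 1.62e-07) untreated and -0.58 ± 0.06 log2 (adjusted p = 5.12e-10) with CP775146, and the CP775146 effects were 0.26 ± 0.06 log2 (adjusted p = 0.00047) in knock-in and 0.39 ± 0.06 log2 (adjusted p = 1.04e-06) in wild type. Pparg, the adipogenic member of the trio, averaged 36.7 ± 1.79 CPM in treated and 41.7 ± 1.15 CPM in untreated knock-in cells, against 39.1 ± 3.68 CPM in treated and 42.4 ± 2.09 CPM in untreated wild-type cells. It fell with CP775146 in knock-in (-0.18 ± 0.06 log2, adjusted p = 0.0106) and had -0.12 ± 0.06 log2 in wild type (adjusted p = 0.1). Its call in knock-in was lost without treated knock-in replicate 3 or untreated knock-in replicate 3 (-0.16 log2, adjusted p 0.0595 to 0.0629). Pparg was called lower with CP775146 in wild type without treated wild-type replicate 2, or with total-count scaling or limma voom (-0.22 to -0.16 log2, adjusted p 0.00342 to 0.0316), and lower in treated knock-in without treated wild-type replicate 3 (-0.15 log2, adjusted p 0.038).

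PPAR-alpha target genes were measured beside the receptors. Counts of called genes in this and the later target lists stand against the shares called among all tested genes. For CP775146 those shares were 37.2% in knock-in and 45.0% in wild type. Between genotypes they were 37.0% untreated and 42.5% with CP775146. All 8 of 8 listed targets rose with CP775146 in each genotype, with a median of 2.61 log2 in knock-in and 3.25 log2 in wild type. Ehhadh, a peroxisomal beta-oxidation enzyme, rose by 6.23 ± 0.05 log2 (edgeR adjusted p = 4.73e-37) in knock-in and 6.21 ± 0.05 log2 (adjusted p = 7.03e-37) in wild type. Vnn1, a pantetheinase, rose by 2.11 ± 0.05 log2 (adjusted p = 1.44e-22) in knock-in and 2.81 ± 0.06 log2 (adjusted p = 4.91e-24) in wild type, and the difference of these effects was called (-0.70 ± 0.08 log2, adjusted p = 1.05e-06). The difference of effects was called for 6 of the 8 targets, with 2 higher and 4 lower in knock-in, beside 7.11% of all tested genes. With CP775146, 5 targets were higher and 1 lower in knock-in than in wild type. Untreated, 5 targets were higher and 2 lower in knock-in, while Ppara itself was lower. Ehhadh was 0.39 ± 0.04 log2 and Vnn1 1.6 ± 0.06 log2 higher in untreated knock-in cells (adjusted p = 1.28e-08 and 2.23e-17).

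The 3 RXR genes, whose products pair with the lipid and vitamin receptors, went separate ways. Rxra (ENSMUSG00000015846, mm10 chromosome 2, 27676440 to 27762957, + strand) is the main RXR gene of liver. Rxra had 242, 234 and 244 CPM in the treated knock-in libraries and 232, 227 and 236 CPM in the untreated knock-in libraries. Wild-type levels of Rxra were 207, 203 and 217 CPM with CP775146 and 238, 243 and 233 CPM untreated. The treated wild-type libraries lay below all others, and the other 3 groups overlapped. Rxra fell with CP775146 in wild type (-0.18 ± 0.04 log2, edgeR adjusted p = 0.000158) and had 0.05 ± 0.04 log2 in knock-in (adjusted p = 0.279). The difference between these effects was 0.24 ± 0.05 log2 (adjusted p = 0.00392). It was higher in treated knock-in than in treated wild type (0.20 ± 0.04 log2, adjusted p = 5.91e-05), while untreated the change was -0.04 ± 0.04 log2 (adjusted p = 0.448).

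Rxrg (ENSMUSG00000015843, mm10 chromosome 1, 167598384 to 167639623, + strand), best known from muscle and brain, was the least abundant RXR gene, at 9.03 TPM beside 42.0 TPM for Rxrb and 115.7 TPM for Rxra. Rxrg had 11, 10.5 and 11 CPM in the treated knock-in libraries and 7.73, 8.43 and 7.84 CPM in the untreated knock-in libraries. Wild-type levels of Rxrg were 6.47, 6.37 and 5.99 CPM with CP775146 and 4.65, 4.10 and 5.69 CPM untreated. Knock-in libraries were above wild-type libraries in each condition and treated above untreated ones in each genotype. Rxrg was higher in knock-in by 0.73 ± 0.10 log2 (edgeR adjusted p = 1.01e-06) untreated and 0.79 ± 0.09 log2 (adjusted p = 3.81e-08) with CP775146, and rose with CP775146 by 0.44 ± 0.09 log2 (adjusted p = 0.000176) in knock-in and 0.38 ± 0.11 log2 (adjusted p = 0.00463) in wild type. Rxrb, a widely expressed RXR, averaged 54.2 ± 3.51 CPM in treated and 53.3 ± 0.960 CPM in untreated knock-in cells, against 61.0 ± 2.75 CPM in treated and 58.7 ± 4.46 CPM in untreated wild-type cells. It was lower in knock-in, at -0.14 ± 0.05 log2 (adjusted p = 0.0401) untreated, where libraries overlapped, and at -0.17 ± 0.05 log2 (adjusted p = 0.00999) with CP775146. The untreated Rxrb call was lost without treated knock-in replicate 1 or 3, untreated knock-in replicate 1, 2 or 3 or untreated wild-type replicate 2 or 3, or with total-count scaling, DESeq2, limma voom or no filter on low counts (-0.15 to -0.04 log2, adjusted p 0.0533 to 0.603). Its call with CP775146 was lost without treated knock-in replicate 2 or treated wild-type replicate 1 or 3, or with total-count scaling (-0.14 to -0.03 log2, adjusted p 0.055 to 0.628).

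Promoter sequences are shown for 4 receptors, chosen after their values were seen: Rxra and Nr5a2, which fell with CP775146 in wild type and not in knock-in, and Rxrg and Nr1i3, which rose in both. Each is the 250 bases before a transcript start in RefSeq on GRCm38.p6, 5′ to 3′ on the gene's strand. RefSeq gives 2 such windows for Rxra, 2 for Rxrg, 2 for Nr5a2 and 1 for Nr1i3, and the window shown is the one that holds the marked letters; the other windows of Rxra, Rxrg and Nr5a2 hold no AGGTCA in these 250 bases. The windows shown for Rxra and Rxrg precede internal starts, 32852 and 19881 bases downstream of the gene starts given above, while those of Nr5a2 and Nr1i3 end just before the gene's first base. Capitals mark AGGTCA, the hexamer that most dimeric receptors recognise, on either strand (TGACCT where it lies on the other strand), and in Nr1i3, which has none, CACGTG, the E-box that the clock factor BMAL1 binds.
Rxra chr2:27709042-27709291 (+): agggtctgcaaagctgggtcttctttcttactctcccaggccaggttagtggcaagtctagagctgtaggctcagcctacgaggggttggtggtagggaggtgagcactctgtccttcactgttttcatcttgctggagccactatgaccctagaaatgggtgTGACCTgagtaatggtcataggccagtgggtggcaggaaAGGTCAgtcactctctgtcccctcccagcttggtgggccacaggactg
Nr5a2 chr1:136960449-136960698 (-): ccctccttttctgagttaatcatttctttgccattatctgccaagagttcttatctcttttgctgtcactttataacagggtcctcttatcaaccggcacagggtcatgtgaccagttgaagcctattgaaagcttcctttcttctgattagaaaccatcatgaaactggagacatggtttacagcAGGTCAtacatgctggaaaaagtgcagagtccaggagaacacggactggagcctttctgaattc
Rxrg chr1:167618015-167618264 (+): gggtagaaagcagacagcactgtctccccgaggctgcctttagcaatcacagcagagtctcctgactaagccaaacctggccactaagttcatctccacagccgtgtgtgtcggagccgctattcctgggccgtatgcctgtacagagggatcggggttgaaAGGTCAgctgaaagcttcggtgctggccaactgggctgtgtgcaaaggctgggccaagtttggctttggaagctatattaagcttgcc
Nr1i3 chr1:171213720-171213969 (+): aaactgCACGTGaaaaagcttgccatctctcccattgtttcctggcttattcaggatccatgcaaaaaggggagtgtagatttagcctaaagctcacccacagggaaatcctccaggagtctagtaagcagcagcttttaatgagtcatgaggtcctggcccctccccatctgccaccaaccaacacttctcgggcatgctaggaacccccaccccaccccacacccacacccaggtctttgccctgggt
In Rxra the marked hexamers begin 87 and 48 bases before that transcript start, in Nr5a2 64 and in Rxrg 88, and the E-box of Nr1i3 begins 244 bases before it. RefSeq windows were matched for 43 of the 47 receptors (64 windows of 300 bases, which reach 50 bases past the start). AGGTCA stood in 18.8% of these receptor windows and in 16.3% of all 32851 windows, searched on both strands. The longer AAAGGTCA, which contains AGGTCA, was found in 3.12% of receptor windows, those of Rxra and Rxrg, and in 1.51% of all. CACGTG was found in 9.38% and 7.15%. The direct repeat AGGTCANAGGTCA, the arrangement that PPAR-RXR dimers prefer, was in none of the receptor windows and in 0.0396% of all. A match describes letters in this window and not a bound site.

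Among the receptors for sterols, bile acids and xenobiotics, the largest change of the family was that of Nr1i3 (ENSMUSG00000005677, mm10 chromosome 1, 171213970 to 171220701, + strand), which encodes the constitutive androstane receptor CAR, an inducer of drug-metabolising enzymes. Nr1i3 had 10.4, 9.78 and 10.9 CPM in the treated knock-in libraries and 3.91, 3.05 and 3.44 CPM in the untreated knock-in libraries. Wild-type levels of Nr1i3 were 8.87, 8.51 and 8.81 CPM with CP775146 and 2.75, 2.29 and 2.87 CPM untreated. Every treated library exceeded every untreated one, and the knock-in libraries stood above wild type in each condition. Nr1i3 rose with CP775146 by 1.58 ± 0.10 log2 (edgeR adjusted p = 8.49e-14) in knock-in and 1.73 ± 0.11 log2 (adjusted p = 1.49e-13) in wild type. It was higher in knock-in by 0.39 ± 0.13 log2 (adjusted p = 0.0168) untreated and 0.25 ± 0.09 log2 (adjusted p = 0.0257) with CP775146. The untreated genotype call was lost without untreated knock-in replicate 1 or untreated wild-type replicate 2 (0.31 log2, adjusted p 0.0966 to 0.0997), and the treated one without treated knock-in replicate 1 or 3 or treated wild-type replicate 2, or with DESeq2 (0.21 to 0.26 log2, adjusted p 0.0599 to 0.115). Annotation places 74.9% of the exonic length of Nr1i3 under exons of Tomm40l on the opposite strand, and reads there were assigned to neither gene. Per unshared base, the level was 26.2 TPM in treated and 9.27 TPM in untreated knock-in cells, against 19.6 TPM in treated and 6.45 TPM in untreated wild-type cells (a setting added after the data were seen). These TPM carry no TMM factors, so their gaps between genotypes are not those of the fitted changes above. Tomm40l was called in none of the 5 comparisons, with changes from -0.15 to 0.25 log2.

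Nr1i2 (ENSMUSG00000022809, mm10 chromosome 16, 38248323 to 38294824, - strand) encodes PXR, a receptor for steroidal and other xenobiotics. Nr1i2 had 101, 100.3 and 104 CPM in the treated knock-in libraries and 77.5, 73.5 and 72.5 CPM in the untreated knock-in libraries. Wild-type levels of Nr1i2 were 115, 114 and 117 CPM with CP775146 and 74.7, 74.0 and 80.5 CPM untreated. Treated libraries were above untreated ones in each genotype, and the treated knock-in libraries were below the treated wild-type ones, while the untreated groups overlapped. It rose by 0.45 ± 0.04 log2 (edgeR adjusted p = 3.39e-10) in knock-in and by 0.60 ± 0.04 log2 (adjusted p = 5.86e-13) in wild type. In treated cells it was lower in knock-in, at -0.18 ± 0.04 log2 (adjusted p = 0.000442), a call lost with total-count scaling (-0.05 log2, adjusted p 0.363). The difference of the CP775146 effects, -0.15 ± 0.06 log2 (adjusted p = 0.137), was called without untreated wild-type replicate 3 (-0.19 log2, adjusted p 0.0409). Of 7 genes listed as CAR and PXR targets, 4 rose and 3 fell with CP775146 in knock-in, and 1 rose and 3 fell in wild type. Cyp2b10, the cytochrome known as the classical CAR target in mouse, fell by 0.97 ± 0.04 log2 in knock-in and 0.90 ± 0.03 log2 in wild type (adjusted p = 9.56e-20 and 3.09e-19), while Nr1i3 rose. Cyp2b10 was also lower in knock-in, at -0.68 ± 0.03 log2 (adjusted p = 9.73e-16) untreated. Ces2a, a carboxylesterase, was lower in knock-in, at -1.07 ± 0.04 log2 (adjusted p = 1e-18) untreated and -0.87 ± 0.04 log2 (adjusted p = 1.09e-16) with CP775146.

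The oxysterol receptor LXR-alpha gene Nr1h3 averaged 66.5 ± 2.14 CPM in treated and 54.8 ± 2.01 CPM in untreated knock-in cells, against 55.0 ± 3.28 CPM in treated and 50.0 ± 2.07 CPM in untreated wild-type cells. It rose with CP775146 by 0.28 ± 0.05 log2 (edgeR adjusted p = 2.13e-05) in knock-in and 0.14 ± 0.05 log2 (adjusted p = 0.0246) in wild type, where libraries overlapped. Nr1h3 was higher in knock-in by 0.13 ± 0.05 log2 (adjusted p = 0.0324) untreated and 0.28 ± 0.05 log2 (adjusted p = 2.31e-05) with CP775146. Its call in wild type was lost without treated wild-type replicate 1 or 3 or untreated wild-type replicate 1 or 3, or with total-count scaling or a fit of the compared groups alone (0.04 to 0.13 log2, adjusted p 0.0617 to 0.551), and its untreated genotype call without untreated knock-in replicate 1 or 2 or untreated wild-type replicate 1 or 3 (0.12 to 0.13 log2, adjusted p 0.0761 to 0.113). LXR-beta (Nr1h2), the ubiquitous form, averaged 62.4 ± 2.13 CPM in treated and 61.4 ± 2.17 CPM in untreated knock-in cells, against 67.7 ± 3.64 CPM in treated and 69.7 ± 9.42 CPM in untreated wild-type cells and was called in no comparison. It was called lower in untreated knock-in cells without untreated wild-type replicate 3, or with DESeq2, limma voom, no filter on low counts or a replicate block (-0.26 to -0.15 log2, adjusted p 0.0014 to 0.0373), and in treated ones without untreated wild-type replicate 2 (-0.12 log2, adjusted p 0.0379). Of 7 LXR targets, 6 were tested and 3 rose and 2 fell with CP775146 in each genotype. Lpcat3, a phospholipid acyltransferase, rose by 1.69 ± 0.04 log2 (adjusted p = 1.35e-24) in knock-in and 2.12 ± 0.04 log2 (adjusted p = 1.02e-26) in wild type, and Abcg5, a sterol exporter subunit, fell by 0.48 ± 0.08 log2 in knock-in and 0.98 ± 0.09 log2 in wild type (adjusted p = 1.23e-05 and 1.62e-10). Both CP775146 effects differed between genotypes, at -0.43 ± 0.06 log2 (adjusted p = 4.78e-06) for Lpcat3 and 0.50 ± 0.12 log2 (adjusted p = 0.00778) for Abcg5.

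FXR (Nr1h4), the bile acid sensor, averaged 88.8 ± 2.29 CPM in treated and 93.4 ± 2.54 CPM in untreated knock-in cells, against 85.5 ± 3.85 CPM in treated and 80.3 ± 6.42 CPM in untreated wild-type cells. It was higher in knock-in untreated (0.22 ± 0.05 log2, edgeR adjusted p = 0.000557), while with CP775146 the change was 0.05 ± 0.05 log2 (adjusted p = 0.383). Without untreated wild-type replicate 3, Nr1h4 was called to rise with CP775146 in wild type (0.16 log2, adjusted p 0.00674) and its effects to differ between genotypes (-0.23 log2, adjusted p 0.0156). Total-count scaling called Nr1h4 higher in treated knock-in (0.19 log2, adjusted p 0.00136) and lower with CP775146 in knock-in (-0.14 log2, adjusted p 0.0221). Of 6 FXR targets, 3 were tested. Abcb11, the bile salt export pump, was higher in knock-in by 0.69 ± 0.06 log2 (adjusted p = 2.09e-09) untreated and 0.89 ± 0.07 log2 (adjusted p = 3.12e-11) with CP775146, and fell with CP775146 in both genotypes. Abcb4, the phospholipid flippase of bile, rose with CP775146 by 1.18 ± 0.04 log2 (adjusted p = 5.03e-19) in knock-in and 1.36 ± 0.05 log2 (adjusted p = 1.54e-20) in wild type.

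Of the thyroid and retinoic acid receptors, Thra and Thrb share the thyroid hormone ligand, with Thrb the main form in liver. Thrb averaged 31.9 ± 2.83 CPM in treated and 31.4 ± 0.943 CPM in untreated knock-in cells, against 29.2 ± 1.04 CPM in treated and 26.8 ± 1.4 CPM in untreated wild-type cells. Thra averaged 7.23 ± 1.03 CPM in treated and 5.99 ± 0.215 CPM in untreated knock-in cells, against 5.20 ± 0.614 CPM in treated and 6.05 ± 0.819 CPM in untreated wild-type cells. Thrb was higher in untreated knock-in cells (0.22 ± 0.06 log2, edgeR adjusted p = 0.00338). Thra was higher in treated knock-in cells (0.47 ± 0.12 log2, adjusted p = 0.00144), with no overlap, and the other Thra changes were not called. Its difference of CP775146 effects was 0.48 ± 0.16 log2 (adjusted p = 0.0752) and was called without treated wild-type replicate 1 or untreated wild-type replicate 1, or with no filter on low counts (0.47 to 0.60 log2, adjusted p 0.0249 to 0.0448). Thra was called to rise with CP775146 in knock-in without treated knock-in replicate 3, treated wild-type replicate 1 or 2 or untreated wild-type replicate 1, or with limma voom or a fit of the compared groups alone (0.24 to 0.34 log2, adjusted p 0.02 to 0.0492), and to fall in wild type without untreated wild-type replicate 1, or with total-count scaling (-0.32 to -0.31 log2, adjusted p 0.035 to 0.0497). Thrb was called with CP775146 in wild type without untreated wild-type replicate 3 (0.16 log2, adjusted p 0.0433) and by genotype in treated cells without treated knock-in replicate 2 or treated wild-type replicate 2, or with total-count scaling (0.16 to 0.26 log2, adjusted p 0.000441 to 0.0465). Dio1, a deiodinase and thyroid hormone target, rose with CP775146 by 1.61 ± 0.07 log2 (adjusted p = 1.27e-18) in knock-in and 2.12 ± 0.07 log2 (adjusted p = 1.7e-20) in wild type, and Klf9 was lower in knock-in, at -0.31 ± 0.04 log2 (adjusted p = 1.12e-06) untreated. In all, 4 of 5 thyroid hormone targets rose with CP775146 in each genotype and none fell.

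Rara and Rarb, which pair with RXR at retinoic acid response elements, were expressed at similar levels per length. Rara averaged 20.2 ± 0.582 CPM in treated and 22.3 ± 1.10 CPM in untreated knock-in cells, against 22.0 ± 1.42 CPM in treated and 25.9 ± 1.94 CPM in untreated wild-type cells. Rarb averaged 12.1 ± 0.351 CPM in treated and 14.9 ± 0.544 CPM in untreated knock-in cells, against 12.9 ± 0.13 CPM in treated and 15.9 ± 1.58 CPM in untreated wild-type cells. Rarb fell with CP775146 by 0.29 ± 0.07 log2 (edgeR adjusted p = 0.00157) in knock-in and 0.31 ± 0.07 log2 (adjusted p = 0.000883) in wild type, without overlap. Rara fell in wild type (-0.23 ± 0.06 log2, adjusted p = 0.00301), had -0.15 ± 0.06 log2 in knock-in (adjusted p = 0.0686) and was lower in untreated knock-in cells (-0.21 ± 0.06 log2, adjusted p = 0.00768). The last Rara call was lost without untreated knock-in replicate 2 or untreated wild-type replicate 2, or with total-count scaling (-0.17 to -0.11 log2, adjusted p 0.0602 to 0.156). A fall of Rara in knock-in was called without untreated wild-type replicate 2, or with total-count scaling, limma voom, a minimum of 5 CPM in 3 libraries or a fit of the compared groups alone (-0.21 to -0.14 log2, adjusted p 0.0072 to 0.0484). Rarg, at 3.34 ± 0.263 CPM in treated and 2.91 ± 0.355 CPM in untreated knock-in cells, against 3.70 ± 0.373 CPM in treated and 3.66 ± 0.553 CPM in untreated wild-type cells, was called in no comparison, and lower in untreated knock-in cells without untreated knock-in replicate 3 or untreated wild-type replicate 2, or with limma voom or a replicate block (-0.44 to -0.33 log2, adjusted p 0.0204 to 0.0439). Of 7 retinoic acid receptor targets, 6 were tested, and 2 rose and 3 fell with CP775146 in each genotype. Tgm2, a transglutaminase, was lower in knock-in, at -0.96 ± 0.04 log2 (adjusted p = 3.08e-17) untreated and -1.17 ± 0.04 log2 (adjusted p = 2.54e-19) with CP775146. Dhrs3, a retinal reductase, rose with CP775146 by 0.44 ± 0.06 log2 (adjusted p = 1.69e-06) in knock-in and 0.92 ± 0.06 log2 (adjusted p = 5.64e-13) in wild type, and these effects differed (-0.48 ± 0.09 log2, adjusted p = 0.000575). The 1 listed vitamin D receptor target did not pass the filter.

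Among the steroid receptors, the glucocorticoid receptor gene Nr3c1, which controls gluconeogenic and anti-inflammatory genes, was the most abundant at 50.0 TPM. Nr3c1 had 100.1, 100.2 and 100.0 CPM in the treated knock-in libraries and 133, 124 and 127 CPM in the untreated knock-in libraries. Wild-type levels of Nr3c1 were 134, 154 and 143 CPM with CP775146 and 176, 174 and 165 CPM untreated. No groups overlapped in any of the 4 comparisons, with the highest libraries in untreated wild type and the lowest in treated knock-in. Nr3c1 was lower in knock-in, at -0.43 ± 0.04 log2 (edgeR adjusted p = 3e-09) untreated and -0.52 ± 0.04 log2 (adjusted p = 4.62e-11) with CP775146. It fell with CP775146 by 0.35 ± 0.04 log2 (adjusted p = 1.37e-07) in knock-in and 0.25 ± 0.04 log2 (adjusted p = 1.63e-05) in wild type. All 7 glucocorticoid receptor targets were tested, and 6 were lower and 1 higher in untreated knock-in cells. In treated knock-in cells, 4 were lower and 1 higher than in treated wild type. With CP775146, 6 fell and none rose in each genotype. Sgk1, a kinase that glucocorticoids induce, fell by 1.59 ± 0.05 log2 in knock-in and 1.81 ± 0.05 log2 in wild type with CP775146 (adjusted p = 1.95e-18 and 8.38e-20). Fkbp5, a cochaperone of the receptor, was lower in knock-in, at -0.49 ± 0.04 log2 (adjusted p = 1.19e-10) untreated and -0.45 ± 0.04 log2 (adjusted p = 5.01e-10) with CP775146.

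Esr1 (ENSMUSG00000019768, mm10 chromosome 10, 4611593 to 5005614, + strand), the estrogen receptor gene, was expressed at a low level, 1.27 TPM. Esr1 had 7.24, 6.32 and 6.70 CPM in the treated knock-in libraries and 8.17, 8.22 and 8.35 CPM in the untreated knock-in libraries. Wild-type levels of Esr1 were 3.52, 4.25 and 3.09 CPM with CP775146 and 6.89, 6.46 and 5.59 CPM untreated. Knock-in libraries stood above wild type in each condition and treated below untreated ones in each genotype. Esr1 was higher in knock-in by 0.39 ± 0.10 log2 (edgeR adjusted p = 0.00318) untreated and 0.89 ± 0.11 log2 (adjusted p = 1.58e-07) with CP775146, and it fell with CP775146 by 0.29 ± 0.10 log2 (adjusted p = 0.0201) in knock-in and 0.80 ± 0.12 log2 (adjusted p = 1.96e-06) in wild type. The difference of these effects was 0.51 ± 0.15 log2 (adjusted p = 0.0409), a call lost without treated knock-in replicate 1 or 3, untreated knock-in replicate 1, 2 or 3, treated wild-type replicate 1 or 3 or untreated wild-type replicate 1 or 2, or with DESeq2 (0.42 to 0.52 log2, adjusted p 0.0605 to 0.132). The fall in knock-in was not called without treated knock-in replicate 2 or 3 or untreated knock-in replicate 3 (-0.29 to -0.25 log2, adjusted p 0.0601 to 0.095). Nr3c2, the mineralocorticoid receptor gene, averaged 9.67 ± 0.479 CPM in treated and 12.1 ± 0.329 CPM in untreated knock-in cells, against 7.95 ± 0.798 CPM in treated and 10.4 ± 0.366 CPM in untreated wild-type cells. It fell with CP775146 by 0.33 ± 0.08 log2 (adjusted p = 0.0011) in knock-in and 0.39 ± 0.08 log2 (adjusted p = 0.00037) in wild type, and was higher in knock-in by 0.22 ± 0.08 log2 (adjusted p = 0.0279) untreated and 0.28 ± 0.08 log2 (adjusted p = 0.00712) with CP775146. Those genotype calls were lost without untreated knock-in replicate 3 or untreated wild-type replicate 1 or 3, or with DESeq2 (0.20 to 0.22 log2, adjusted p 0.0616 to 0.0902) untreated, and without treated wild-type replicate 3 (0.21 log2, adjusted p 0.0574) in treated cells. Within the steroid receptors both genotype directions occurred, with Nr3c1 lower and Esr1 and Nr3c2 higher in knock-in.

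The estrogen-related receptors bind DNA without estrogen and promote mitochondrial genes with PGC-1 coactivators. Esrrg (ENSMUSG00000026610, mm10 chromosome 1, 187608791 to 188214885, + strand) was the second member to change by more than 1 log2. Esrrg had 2.60, 2.55 and 3.07 CPM in the treated knock-in libraries and 1.26, 1.07 and 1.22 CPM in the untreated knock-in libraries. Wild-type levels of Esrrg were 1.91, 2.04 and 1.75 CPM with CP775146 and 0.696, 0.752 and 0.430 CPM untreated. Treated libraries exceeded untreated ones and knock-in exceeded wild-type libraries in every comparison. Esrrg rose with CP775146 by 1.21 ± 0.17 log2 (edgeR adjusted p = 1.19e-06) in knock-in and 1.6 ± 0.22 log2 (adjusted p = 5.5e-07) in wild type. It was higher in knock-in by 0.92 ± 0.23 log2 (adjusted p = 0.00233) untreated and 0.53 ± 0.16 log2 (adjusted p = 0.00889) with CP775146, the last call being lost without treated knock-in replicate 3 (0.44 log2, adjusted p 0.0641). These levels rest on 608 counts over all libraries. Esrra, the abundant member at 56.4 TPM, averaged 50.1 ± 0.449 CPM in treated and 50.3 ± 2.20 CPM in untreated knock-in cells, against 53.2 ± 3.56 CPM in treated and 55.3 ± 1.19 CPM in untreated wild-type cells and was called once, lower in untreated knock-in cells (-0.14 ± 0.05 log2, adjusted p = 0.0247). That call was lost without untreated knock-in replicate 1 or 2 or untreated wild-type replicate 1 or 2, or with total-count scaling or no filter on low counts (-0.14 to -0.04 log2, adjusted p 0.0551 to 0.585). Esrra was called lower in treated knock-in without treated wild-type replicate 2 (-0.13 log2, adjusted p 0.0297), and lower with CP775146 in wild type with total-count scaling (-0.15 log2, adjusted p 0.0103). Of 7 listed targets, 6 were tested, and 4 rose with CP775146 in each genotype. In wild type 2 rose without untreated replicate 1 or treated replicate 3, and total-count scaling left 2 in knock-in and 1 in wild type. Cycs, which encodes cytochrome c, rose by 0.92 ± 0.09 log2 (adjusted p = 3.42e-09) in knock-in and 1.15 ± 0.10 log2 (adjusted p = 8.83e-11) in wild type, and Idh3a, a citric acid cycle enzyme subunit, was higher in knock-in by 0.19 ± 0.04 log2 (adjusted p = 0.000807) untreated and 0.28 ± 0.04 log2 (adjusted p = 2.08e-06) with CP775146.

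The clock receptors REV-ERB-alpha and REV-ERB-beta repress, and the ROR receptors activate, genes such as Arntl through shared DNA elements. Nr1d1 (ENSMUSG00000020889, mm10 chromosome 11, 98767932 to 98775333, - strand) encodes REV-ERB-alpha. Nr1d1 had 28.6, 25.0 and 24.3 CPM in the treated knock-in libraries and 13.1, 14.6 and 17.4 CPM in the untreated knock-in libraries. Wild-type levels of Nr1d1 were 23.3, 19.0 and 22.1 CPM with CP775146 and 15.4, 14.9 and 15.7 CPM untreated. Treated libraries lay above untreated ones in each genotype, and the untreated groups overlapped. Nr1d1 rose with CP775146 by 0.78 ± 0.09 log2 (edgeR adjusted p = 9.27e-07) in knock-in and 0.48 ± 0.10 log2 (adjusted p = 0.000376) in wild type. In treated cells it was higher in knock-in (0.27 ± 0.09 log2, adjusted p = 0.0176), a call lost without treated knock-in replicate 1 or treated wild-type replicate 2 (0.20 log2, adjusted p 0.0793 to 0.0864). The difference of effects, 0.30 ± 0.13 log2 (adjusted p = 0.21), was called without untreated knock-in replicate 3 (0.42 log2, adjusted p 0.031). Nr1d1 and Thra overlap by 263 exonic bases on opposite strands, 8.5% of Nr1d1 and 5.7% of Thra.

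Nr1d2 (REV-ERB-beta) averaged 47.3 ± 3.05 CPM in treated and 41.4 ± 1.43 CPM in untreated knock-in cells, against 47.7 ± 2.02 CPM in treated and 44.0 ± 4.50 CPM in untreated wild-type cells and rose with CP775146 in knock-in (0.19 ± 0.06 log2, edgeR adjusted p = 0.0121), with 0.12 ± 0.06 log2 in wild type (adjusted p = 0.12). The knock-in call was lost without treated knock-in replicate 1 or untreated knock-in replicate 1, or with total-count scaling (0.13 to 0.16 log2, adjusted p 0.0682 to 0.0917). Nr1d2 was called in wild type without untreated wild-type replicate 1 (0.19 log2, adjusted p 0.0154), and lower in untreated knock-in cells without untreated wild-type replicate 2 (-0.16 log2, adjusted p 0.0322). Rora, at 143 ± 1.59 CPM in treated and 149.7 ± 3.78 CPM in untreated knock-in cells, against 158 ± 6.87 CPM in treated and 154 ± 6.90 CPM in untreated wild-type cells, was lower in treated knock-in than in treated wild-type cells (-0.15 ± 0.04 log2, adjusted p = 0.00344), a call lost with total-count scaling (-0.01 log2, adjusted p 0.831); a fall in knock-in was called with total-count scaling (-0.13 log2, adjusted p 0.00842). Of 5 REV-ERB and ROR targets, 1 rose and 3 fell with CP775146 in knock-in, and 1 rose and 2 fell in wild type. The 1 rise in knock-in was lost without treated or untreated knock-in replicate 2, and 1 of the falls in wild type without untreated wild-type replicate 1. Arntl, which encodes BMAL1, fell by 0.43 ± 0.07 log2 (adjusted p = 7.44e-06) in knock-in and had -0.11 ± 0.07 log2 in wild type (adjusted p = 0.186). These effects differed (-0.32 ± 0.10 log2, adjusted p = 0.0379), a call lost without treated knock-in replicate 1 or 3, untreated knock-in replicate 2 or 3, treated wild-type replicate 2 or 3 or untreated wild-type replicate 1 or 2, or with total-count scaling (-0.34 to -0.25 log2, adjusted p 0.0529 to 0.128). The fall of Arntl in wild type was called without treated wild-type replicate 2, or with total-count scaling (-0.21 to -0.18 log2, adjusted p 0.0136 to 0.0397). Nfil3, a bZIP repressor, fell by 0.35 ± 0.04 log2 (adjusted p = 1.58e-07) in knock-in and 0.29 ± 0.04 log2 (adjusted p = 1.81e-06) in wild type.

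Hnf4a (ENSMUSG00000017950, mm10 chromosome 2, 163506808 to 163572910, + strand) was the most abundant member and changed little. Hnf4a had 605, 587 and 599 CPM in the treated knock-in libraries and 632, 618 and 625 CPM in the untreated knock-in libraries. Wild-type levels of Hnf4a were 594, 563 and 586 CPM with CP775146 and 637, 634 and 623 CPM untreated. The treated libraries stood below the untreated ones in each genotype, and the genotypes overlapped in both conditions. Hnf4a fell with CP775146 in wild type by 0.12 ± 0.03 log2 (edgeR adjusted p = 0.00567) and had -0.07 ± 0.03 log2 in knock-in (adjusted p = 0.138). Knock-in minus wild type was -0.01 ± 0.03 log2 untreated (adjusted p = 0.793) and 0.04 ± 0.03 log2 with CP775146 (adjusted p = 0.389). Total-count scaling turned the untreated value to 0.09 (adjusted p = 0.0374) and called Hnf4a higher in treated knock-in (0.18 log2, adjusted p 7.89e-05). A fall in knock-in was called with total-count scaling, limma voom or a fit of the compared groups alone (-0.13 to -0.06 log2, adjusted p 0.00276 to 0.0454). Of 7 HNF4-alpha targets, 1 rose and 2 fell with CP775146 in knock-in, and 4 rose and 2 fell in wild type. Without untreated replicate 1 or treated replicate 3 of wild type, 1 target rose there, and without treated replicate 1, 2 rose. The falls in knock-in numbered 0 or 1 without any 1 of the knock-in libraries, untreated wild-type replicate 1 or 2, or treated wild-type replicate 1. Mttp, the transfer protein of lipoprotein assembly, rose by 1.18 ± 0.04 log2 (adjusted p = 8.2e-22) in knock-in and 1.4 ± 0.04 log2 (adjusted p = 1.16e-23) in wild type. Ttr, which encodes transthyretin, was lower in treated knock-in (-0.36 ± 0.05 log2, adjusted p = 1.31e-06).

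Nr5a2 (ENSMUSG00000026398, mm10 chromosome 1, 136842571 to 136960448, - strand) encodes LRH-1, a phospholipid-binding receptor known for bile acid and cholesterol genes, and it showed the clearest difference in response. Nr5a2 had 48.3, 46.9 and 46.8 CPM in the treated knock-in libraries and 47.6, 48.9 and 51.0 CPM in the untreated knock-in libraries. Wild-type levels of Nr5a2 were 28.5, 33.8 and 31.5 CPM with CP775146 and 43.7, 43.4 and 42.6 CPM untreated. Treated wild-type libraries stood far below the 3 other groups, the knock-in groups overlapped each other, and untreated knock-in stood above untreated wild type. Nr5a2 fell with CP775146 in wild type by 0.47 ± 0.05 log2 (edgeR adjusted p = 2.14e-08) and had -0.05 ± 0.05 log2 in knock-in (adjusted p = 0.422). The difference of these effects was 0.41 ± 0.07 log2 (adjusted p = 0.000365). It was higher in knock-in by 0.19 ± 0.05 log2 (adjusted p = 0.00428) untreated and 0.60 ± 0.05 log2 (adjusted p = 1.05e-10) with CP775146. Of its 3 listed targets, Cyp7a1, the first enzyme of bile acid synthesis, fell with CP775146 in both genotypes (adjusted p = 1.77e-08 in knock-in and 2.14e-06 in wild type). It held 13 counts in the treated and 135 in the untreated knock-in libraries, against 3 and 52 in treated and untreated wild type, too few for a fold. Cyp8b1, the sterol hydroxylase of cholic acid synthesis, was lower in knock-in, at -1.16 ± 0.21 log2 (adjusted p = 5.98e-05) untreated and -0.72 ± 0.21 log2 (adjusted p = 0.00693) with CP775146, the last call being lost without treated knock-in replicate 2 (-0.55 log2, adjusted p 0.0541).

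Of the remaining orphan receptors, Nr2f2 (ENSMUSG00000030551, mm10 chromosome 7, 70351946 to 70366735, - strand) encodes COUP-TFII, a regulator best known from venous endothelium and mesenchyme. Nr2f2 had 12, 11.7 and 12.1 CPM in the treated knock-in libraries and 9.97, 9.80 and 11.1 CPM in the untreated knock-in libraries. Wild-type levels of Nr2f2 were 7.39, 7.69 and 6.99 CPM with CP775146 and 9.45, 9.06 and 8.45 CPM untreated. Knock-in libraries lay above wild-type libraries in both conditions. Treated knock-in libraries were above and treated wild-type libraries below their untreated counterparts. Nr2f2 was the 1 member called in opposite directions, rising in knock-in by 0.21 ± 0.07 log2 (edgeR adjusted p = 0.0247) and falling in wild type by 0.29 ± 0.09 log2 (adjusted p = 0.00701). The difference was 0.50 ± 0.11 log2 (adjusted p = 0.00496). In treated cells it was higher in knock-in by 0.70 ± 0.08 log2 (adjusted p = 2.37e-08), and untreated by 0.20 ± 0.08 log2 (adjusted p = 0.0519). The rise in knock-in was not called without treated knock-in replicate 1 or 3 or untreated knock-in replicate 1 or 2, or with total-count scaling, DESeq2 or no filter on low counts (0.15 to 0.21 log2, adjusted p 0.054 to 0.119). The untreated genotype difference was called without untreated knock-in replicate 2 or untreated wild-type replicate 1, or with RLE scaling, total-count scaling or a minimum of 5 CPM in 3 libraries (0.20 to 0.30 log2, adjusted p 0.00305 to 0.0482). Endothelial and stellate marker sums were lower in knock-in, and with CP775146 they were lower in each genotype, apart from overlapping stellate sums in wild type. Of 6 tested endothelial markers, 2 were called lower in knock-in in each condition, and of 7 stellate markers 4. With CP775146, 1 endothelial and 2 stellate markers fell in knock-in, and 2 and 0 in wild type. None of these markers was called in the other direction. The part of those cells in the Nr2f2 values was not tested.

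Nr2f6, a COUP-TF relative, averaged 73.0 ± 3.36 CPM in treated and 72.0 ± 5.27 CPM in untreated knock-in cells, against 63.7 ± 7.24 CPM in treated and 67.3 ± 3.45 CPM in untreated wild-type cells and was higher in treated knock-in than in treated wild-type cells (0.20 ± 0.07 log2, edgeR adjusted p = 0.0409). This call was lost without treated knock-in replicate 1 or 3, treated wild-type replicate 2 or untreated wild-type replicate 2 or 3 (0.11 to 0.20 log2, adjusted p 0.0586 to 0.122), and an untreated difference was called with total-count scaling (0.20 log2, adjusted p 0.0357). Exons of Ocel1 on the other strand cover 54.4% of its exonic length. The testicular receptors, which bind direct repeats as homo- or heterodimers, moved apart. Nr2c1 (TR2) averaged 23.6 ± 1.02 CPM in treated and 22.0 ± 0.508 CPM in untreated knock-in cells, against 28.4 ± 1.44 CPM in treated and 22.7 ± 0.555 CPM in untreated wild-type cells. Nr2c2 (TR4) averaged 22.6 ± 1.02 CPM in treated and 26.0 ± 0.737 CPM in untreated knock-in cells, against 23.1 ± 0.896 CPM in treated and 29.1 ± 1.23 CPM in untreated wild-type cells. Nr2c1 rose with CP775146 in wild type (0.32 ± 0.06 log2, adjusted p = 2.32e-05), had 0.10 ± 0.06 log2 in knock-in (adjusted p = 0.155) and was lower in treated knock-in (-0.26 ± 0.05 log2, adjusted p = 0.000214), a call lost with total-count scaling (-0.13 log2, adjusted p 0.0507). Its difference of effects, -0.22 ± 0.08 log2 (adjusted p = 0.0947), was called with limma voom (-0.24 log2, adjusted p 0.0491). Nr2c2 fell with CP775146 by 0.20 ± 0.05 log2 (adjusted p = 0.00385) in knock-in and 0.33 ± 0.06 log2 (adjusted p = 1.53e-05) in wild type, and was lower in untreated knock-in cells (-0.16 ± 0.05 log2, adjusted p = 0.0191), the last call being lost without untreated knock-in replicate 2 or 3 or untreated wild-type replicate 1, or with total-count scaling, DESeq2 or no filter on low counts (-0.16 to -0.06 log2, adjusted p 0.0503 to 0.401). It shares 30.7% of its exonic length with Mrps25 on the other strand, and Mrps25 was higher in knock-in untreated (0.37 ± 0.06 log2, adjusted p = 1.12e-05).

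Nr6a1 (GCNF), known from germ cells and embryos, averaged 17.0 ± 0.0810 CPM in treated and 17.9 ± 0.147 CPM in untreated knock-in cells, against 16.8 ± 0.254 CPM in treated and 18.7 ± 0.406 CPM in untreated wild-type cells and fell with CP775146 in wild type (-0.16 ± 0.06 log2, edgeR adjusted p = 0.0262). The call was lost without treated wild-type replicate 1 or untreated wild-type replicate 3, or with DESeq2, limma voom, no filter on low counts or a fit of the compared groups alone (-0.17 to -0.14 log2, adjusted p 0.0531 to 0.0899). Total-count scaling called Nr6a1 lower with CP775146 in knock-in (-0.14 log2, adjusted p 0.0441) and higher in treated knock-in than treated wild type (0.15 log2, adjusted p 0.0281). The NR4A receptors are immediate early genes that act without a ligand, and both expressed members were low. Nr4a2 had 1.81, 1.56 and 1.58 CPM in the treated knock-in libraries and 1.20, 0.886 and 1.02 CPM in the untreated knock-in libraries. Wild-type levels of Nr4a2 were 1.45, 1.06 and 1.19 CPM with CP775146 and 0.952, 0.939 and 0.931 CPM untreated. Treated knock-in libraries stood above the untreated ones, and Nr4a2 rose there by 0.67 ± 0.19 log2 (adjusted p = 0.00629), on 451 counts over all libraries, with 0.39 ± 0.22 log2 in wild type (adjusted p = 0.153). It was called higher in treated knock-in without treated wild-type replicate 1, or with total-count scaling (0.55 to 0.56 log2, adjusted p 0.0169 to 0.0406). Nr4a1, at 3.31 ± 0.161 CPM in treated and 3.43 ± 0.254 CPM in untreated knock-in cells, against 2.81 ± 0.371 CPM in treated and 3.01 ± 0.0377 CPM in untreated wild-type cells, was called in no comparison except, in treated cells, higher in knock-in with total-count scaling (0.38 log2, adjusted p 0.0174).

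**Figure D3:**
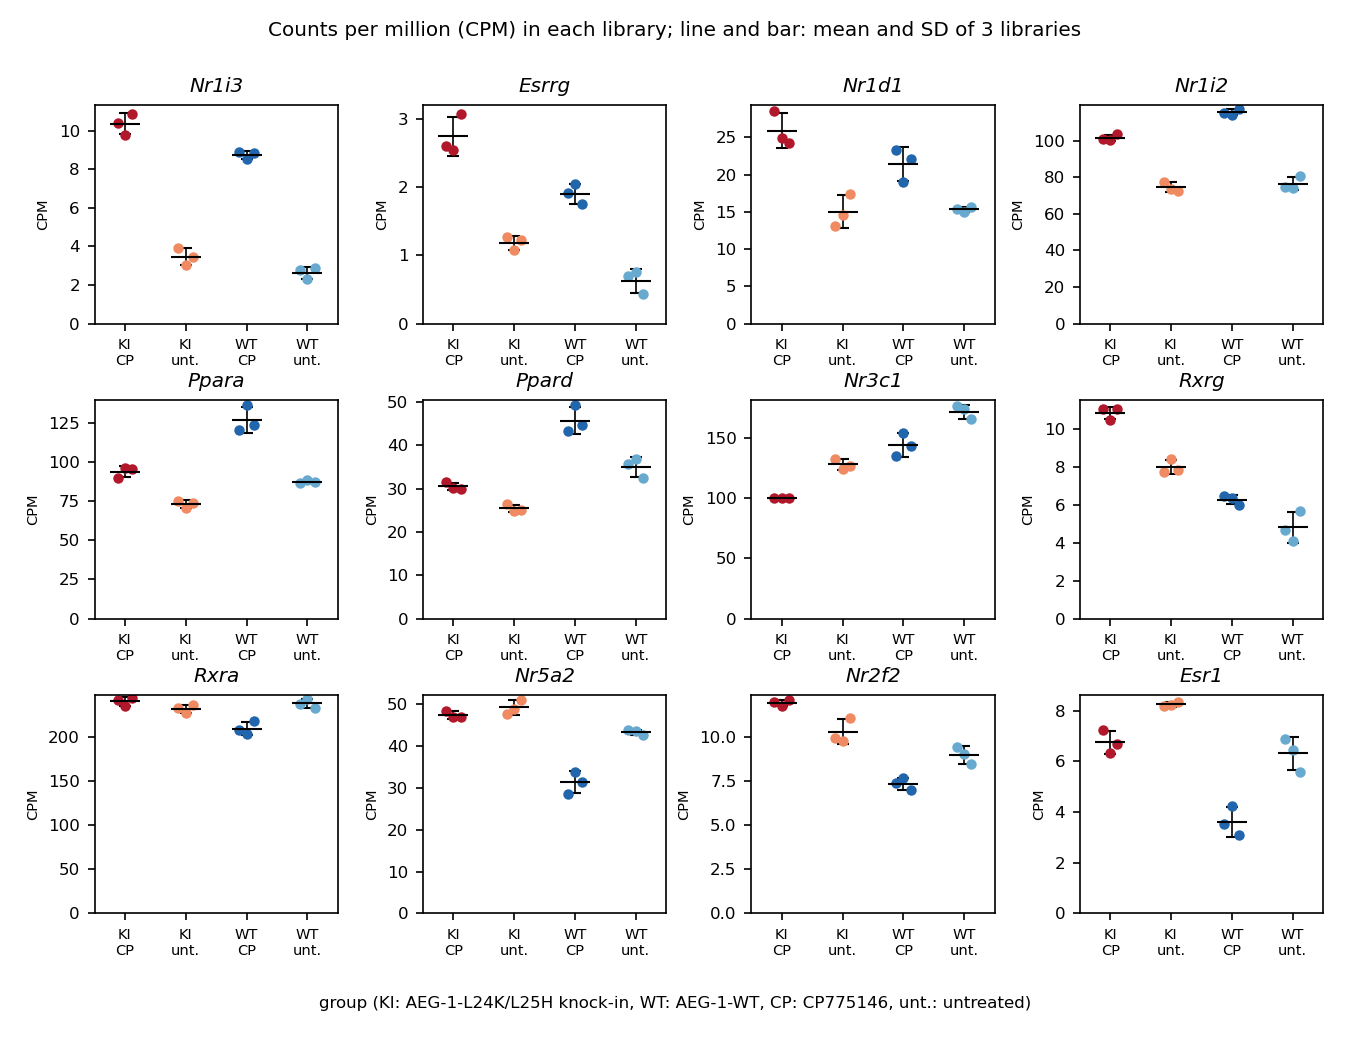
CPM of 12 nuclear receptor genes in each library (points, from 0) with the mean and SD of 3 libraries (line and bar); groups run from treated knock-in to untreated wild type. Nr1i3, Esrrg, Nr1i2, Ppara and Ppard are higher with CP775146 in both genotypes, and Nr5a2 and Rxra are lowest in the treated wild-type libraries.

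Over the family, the CP775146 responses of the genotypes were compared on separate libraries. Of 17 receptors called in knock-in and 20 called in wild type, 13 changed in the same direction in both, 76.5% of the knock-in calls and 65.0% of the wild-type calls. Over all tested genes those shares were 75.8% and 62.6%, close to those of the receptors. The 8 that rose in both were Ppara, Ppard, Rxrg, Nr1h3, Nr1i2, Nr1i3, Esrrg and Nr1d1. The 5 that fell in both were Rarb, Esr1, Nr3c1, Nr3c2 and Nr2c2. Pparg, Nr1d2 and Nr4a2 were called in knock-in and not in wild type. Rxra, Rara, Hnf4a, Nr5a2, Nr2c1 and Nr6a1 were called in wild type and not in knock-in. Of these 9, the difference of the effects was called for Rxra and Nr5a2, and it was not called for the other 7. The genotype comparisons, also on separate libraries, shared 11 receptors in the same direction, 68.8% of the 16 untreated and 57.9% of the 19 treated calls, and none in opposite directions. Over all tested genes the shares were 71.8% and 62.5%. In knock-in, Ppara, Ppard, Rxrb and Nr3c1 were lower, and Rxrg, Nr1h3, Nr1i3, Esr1, Nr3c2, Esrrg and Nr5a2 higher, in both conditions.

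**Figure D4:**
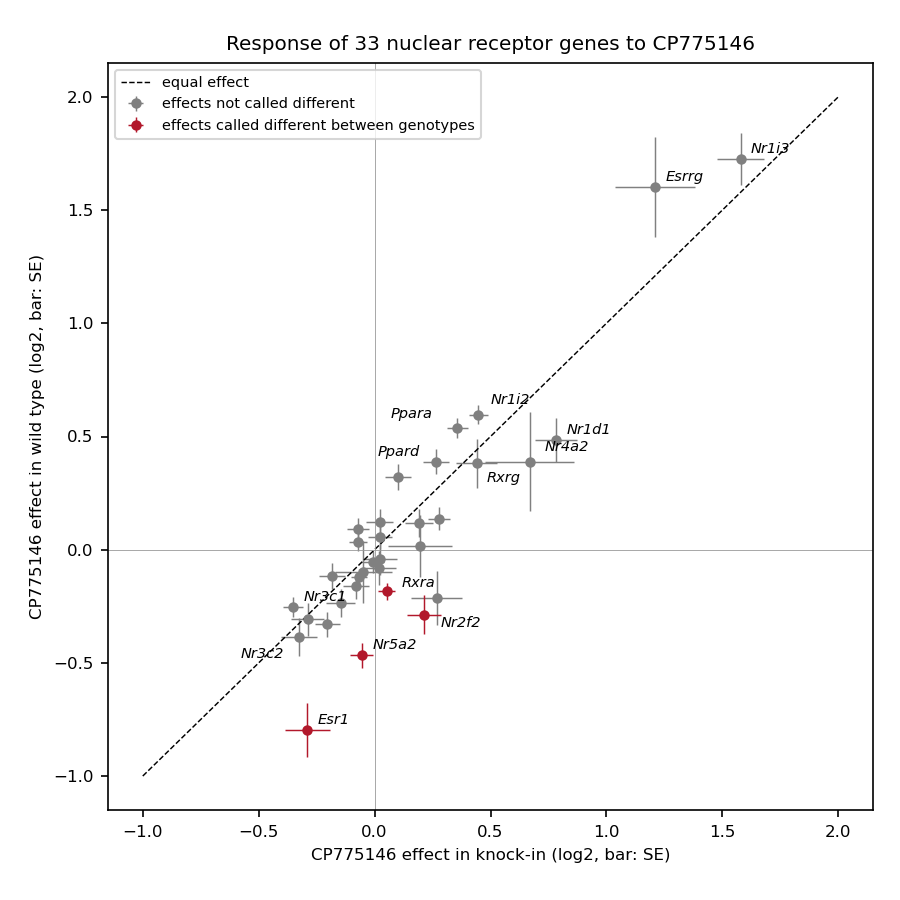
CP775146 effect (log2 ± SE) of the 33 tested nuclear receptor genes in knock-in (x axis) and wild type (y axis), with the line of equal effects; red points are the 4 receptors whose effects were called different. Nr1i3 and Esrrg stand far above the others in both genotypes, and Rxra, Nr5a2, Nr2f2 and Esr1 lie below the line.

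Coactivators and corepressors, through which the receptors act, were measured as a list of 19 genes, all tested. With CP775146, 3 rose and 5 fell in knock-in, and 2 rose and 12 fell in wild type. These were 42.1% and 73.7% of the 19, beside 37.2% and 45.0% of all tested genes. With CP775146, 10 were higher and 1 lower in knock-in than in wild type, while untreated 4 were higher and 2 lower. These were 57.9% and 31.6% of the 19, beside 42.5% and 37.0% of all tested genes. Medians with CP775146 were -0.09 log2 in knock-in and -0.13 log2 in wild type, where the medians of all tested genes were -0.01. Ppargc1a, the coactivator PGC-1-alpha of PPAR-alpha and the estrogen-related receptors, fell with CP775146 by 1.17 ± 0.09 log2 (edgeR adjusted p = 7.65e-12) in knock-in and 1.12 ± 0.10 log2 (adjusted p = 1.33e-10) in wild type. It was higher in knock-in by 0.36 ± 0.09 log2 (adjusted p = 0.00122) untreated and 0.32 ± 0.11 log2 (adjusted p = 0.0164) with CP775146, the last call being lost without treated knock-in replicate 1 or 3 or treated wild-type replicate 3 (0.23 to 0.30 log2, adjusted p 0.0526 to 0.128). Ncoa3, a p160 coactivator, was higher in knock-in by 0.18 ± 0.05 log2 (adjusted p = 0.00265) untreated and 0.33 ± 0.05 log2 (adjusted p = 9.92e-07) with CP775146, and fell with CP775146 in wild type (-0.27 ± 0.05 log2, adjusted p = 3.31e-05). Total-count scaling raised the coregulators that fell in knock-in to 10, and without untreated wild-type replicate 1, 4 coregulators rose in wild type.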

How the data were processed

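RNA-seq was measured in 12 libraries of primary mouse hepatocytes. The deposited values are raw counts of reads per gene, which the authors made, per the file headers, with featureCounts 1.6.2, adding the reads on a gene's exons, from Subread alignments to mm10 with Ensembl release 83 (GRCm38). Per the submitters' processing notes, featureCounts 1.4.6-p4, FastQC 0.11.2, cutadapt 1.9 and edgeR 3.18.1 were used. No strand, multi-mapping or overlap option was set, so a read over exons of 2 genes was counted for neither, which lowers the counts of Nr1i3, Nr2f6 and Nr2c2, and reads cannot be assigned by strand. Symbols came from gene name tables for 46488 of 46983 IDs, and 495 IDs were not matched.

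Low counts were removed by filterByExpr, whose minimum was 10 counts and a total of 15. Under R 4.3.3, edgeR 4.0.16 then applied TMM factors and a robust glmQLFit with 1 term per group. Tests used glmQLFTest on 5 contrasts, with Benjamini-Hochberg adjustment over all 15664 tested genes and a threshold of 0.05. CPM used TMM-scaled library sizes, and TPM used the exonic length in the files and no TMM factors. Total counts of 26956032 to 34885451 make a count of 3 equal to 0.086 to 0.111 CPM; such limits cover counting error only. The tested steps were run on simulated counts with known changes before use. Library pairs within groups differed by more than sampling noise (chi-square per degree of freedom 1.68 to 6.43), so none was treated as a duplicate.

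Values in every library were given for receptors called with a change of at least 0.5 log2 and for Ppara, Rxra, Hnf4a and Nr0b2. Of each target list and the coregulators, the genes with the smallest adjusted p in a comparison were named, at most 2 a list. Members, lists and rules were chosen with earlier results of these data known. Results were recomputed with DESeq2 1.42.0, with voom and sample weights in limma 3.58.1, with RLE or total-count scaling, with no filter, at least 5 CPM in 3 libraries, with the compared groups alone, with a replicate block and without each library. Promoter windows came from RefSeq tables on GRCm38.p6. Protein sequences were not used here.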

Additional observations from a re-analysis of the deposited data

Results flagged for a closer look

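For 4 nuclear receptors the response to CP775146 differed between the genotypes by the interaction test of edgeR over all 12 libraries, each with a higher value in knock-in than in wild type. The differences, knock-in minus wild type, were 0.412 log2 for Nr5a2 (adjusted p = 0.000365), 0.237 log2 for Rxra (adjusted p = 0.00392), 0.5 log2 for Nr2f2 (adjusted p = 0.00496) and 0.507 log2 for Esr1 (adjusted p = 0.0409). The first 3 held under every alternative tried, and that of Esr1 did not.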

How the results depend on the processing

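Calls that held under every alternative in which the gene was tested numbered 9 of 16 by genotype untreated and 10 of 19 with CP775146. They numbered 13 of 17 by CP775146 in knock-in, 18 of 20 in wild type and 3 of 4 in the interaction. Calls of Esrrg and Nr4a2 are among these, and both genes were too low to be tested with the minimum of 5 CPM in 3 libraries. The fit of the compared groups alone did not cover the interaction. Total-count scaling gave 12 receptors higher and 3 lower in untreated knock-in, 18 higher and 3 lower in treated knock-in, and 11 that fell with CP775146 in knock-in; of all tested genes it called 32.1% higher and 11% lower untreated and 38.0% higher and 11.9% lower treated. It turned the untreated genotype value of Hnf4a to 0.088 log2 and the treated one of Mttp to 0.118 log2 (adjusted p = 0.00469). The number of receptors with a lower response in knock-in was 1 with limma voom (Nr2c1) and 1 with no filter (Ppara). The cause was not tested. Leaving out 1 library gave 7 to 9 higher and 3 to 7 lower receptors in untreated knock-in. In treated knock-in it gave 9 to 13 higher and 6 to 8 lower. With CP775146, 9 to 12 rose and 4 to 7 fell in knock-in, and 8 to 10 rose and 10 to 12 fell in wild type. These fits tested 15916 to 15960 genes. Of all these, 2557 to 2942 were higher and 2370 to 3130 lower in untreated knock-in. In treated knock-in, 2798 to 3337 were higher and 2977 to 3558 lower. With CP775146, 2384 to 3068 rose and 2425 to 3135 fell in knock-in. In wild type 3132 to 3563 rose and 3067 to 3430 fell. The interaction gave 3 to 4 higher and 0 to 2 lower receptors, with Esr1 lost or Thra or Nr1d1 added in some of these fits, the 2 lower being Nr1h4 and Nr1i2 without untreated wild-type replicate 3. Over all tested genes the interaction gave 251 to 638 higher and 481 to 882 lower in these fits. The number expressed stayed at 33 without any 1 library. The replicate block called Nr1h2 (-0.18 log2, adjusted p = 0.0373) and Rarg (-0.33 log2, adjusted p = 0.0439) lower in untreated knock-in and changed no other receptor's call. Same-numbered libraries deviated with correlations of -0.0808 to 0.0891, and differently numbered ones with -0.0921 to 0.131. With 3 libraries per group and overlapping ranges, these values cannot decide whether the numbers pair samples, and the labels do not say. Low counts limit Nr4a2, Esrrg and the 14 untested receptors.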
